A study of Homo sapiens with 2 samples.

Results

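The genes described here encode the machinery that carries nuclear-encoded proteins into mitochondria. They were taken by symbol: single gene symbols that begin with TIMM or TOMM, together with SAMM50, MTX1, MTX2, GRPEL1, GRPEL2, CHCHD4, GFER, PMPCA, PMPCB, OXA1L, PAM16, IMMP1L, IMMP2L and MIPEP, without pseudogenes and antisense genes. This gave 37 of 19775 named genes, represented by 66 probe sets. The set was proposed with the Glivec and untreated signals in view, so its direction is described here and is not tested. An EOL-1 culture exposed for 4 h to Glivec at 100 nM was set against an untreated culture of the same cells. Glivec is imatinib, which blocks PDGF receptor kinases among others, and EOL-1 is an established line from a human eosinophilic leukaemia whose growth depends on the FIP1L1-PDGFRA fusion kinase. Both cultures grew in RPMI with 10% FBS and antibiotics and were rinsed with PBS before total RNA was taken for a biotin-labelled Affymetrix array. Each condition has 1 array, so the differences have no replicate check and no test, and precision is limited by the number of arrays.

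Most mitochondrial proteins are made in the cytosol and enter through the TOM complex of the outer membrane. The SAM complex then folds barrel proteins into that membrane, the small TIM chaperones escort hydrophobic precursors across the intermembrane space, TIM22 inserts carriers into the inner membrane, and TIM23 with its ATP-driven motor pulls presequence proteins into the matrix, where peptidases trim them. A separate disulfide relay traps small cysteine-rich proteins, the small TIM chaperones among them, in the intermembrane space. Together these routes supply nuclear-encoded proteins to the other parts of the mitochondrion.

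Of the 37 genes, 36 gave a signal above the floor of 13.7 (the median of all signals on both arrays) on both arrays. TIMM23, the presequence channel, had signals of 1.92 with Glivec and 2.32 without by its only probe set of a single gene, and is counted with no ratio. A further 6 probe sets that list an import gene together with another gene were not used. Of these, 3 list TIMM23 with TIMM23B, so the TIMM23 signals given here leave them out. TOMM6 and TOMM7, small TOM subunits that the symbol rule would take, are listed by such shared probe sets alone, so they are not among the 37 genes or in the TOM counts. Where a gene has several probe sets, the one with the highest mean signal stands for it, and ratios are Glivec over untreated.

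Most of the machinery was lower on the Glivec array, by small amounts. The log2 ratio was below 0 for 31 of 36 genes, where 41.0% of all 12705 measured genes were below 0, and above 0 for 5 genes, where 59.0% were. Of these 5, 3 (GFER, MIPEP and TOMM34) were above 0 with median centring, 2 (OXA1L and TOMM34) after a loess trend and 0 with scaling to the hybridisation spike-ins, which is described further on. The median was -0.22 (1.17-fold lower), against a median of 0.10 over all measured genes, and 33 of the 36 genes lay under that median. At least 2-fold lower were 3 genes (TIMM8A, GRPEL1 and CHCHD4), where the share of all measured genes was 2.63%, and 0 were at least 2-fold higher, where it was 3.13%. At least 1.5-fold lower were 4 genes, the other being GRPEL2, where the share was 8.33%, and 0 were at least 1.5-fold higher, where it was 13.5%. The remaining 32 genes lay within 1.5-fold. Of 3500 genes of like mean signal, described further on, 48.6% were below 0 and 3.17% were at least 2-fold lower. Because the set was proposed from this contrast, nothing is read from these shares. In a bulk culture, fewer cells of a type and less RNA per cell cannot be told apart.

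**Figure D1:**
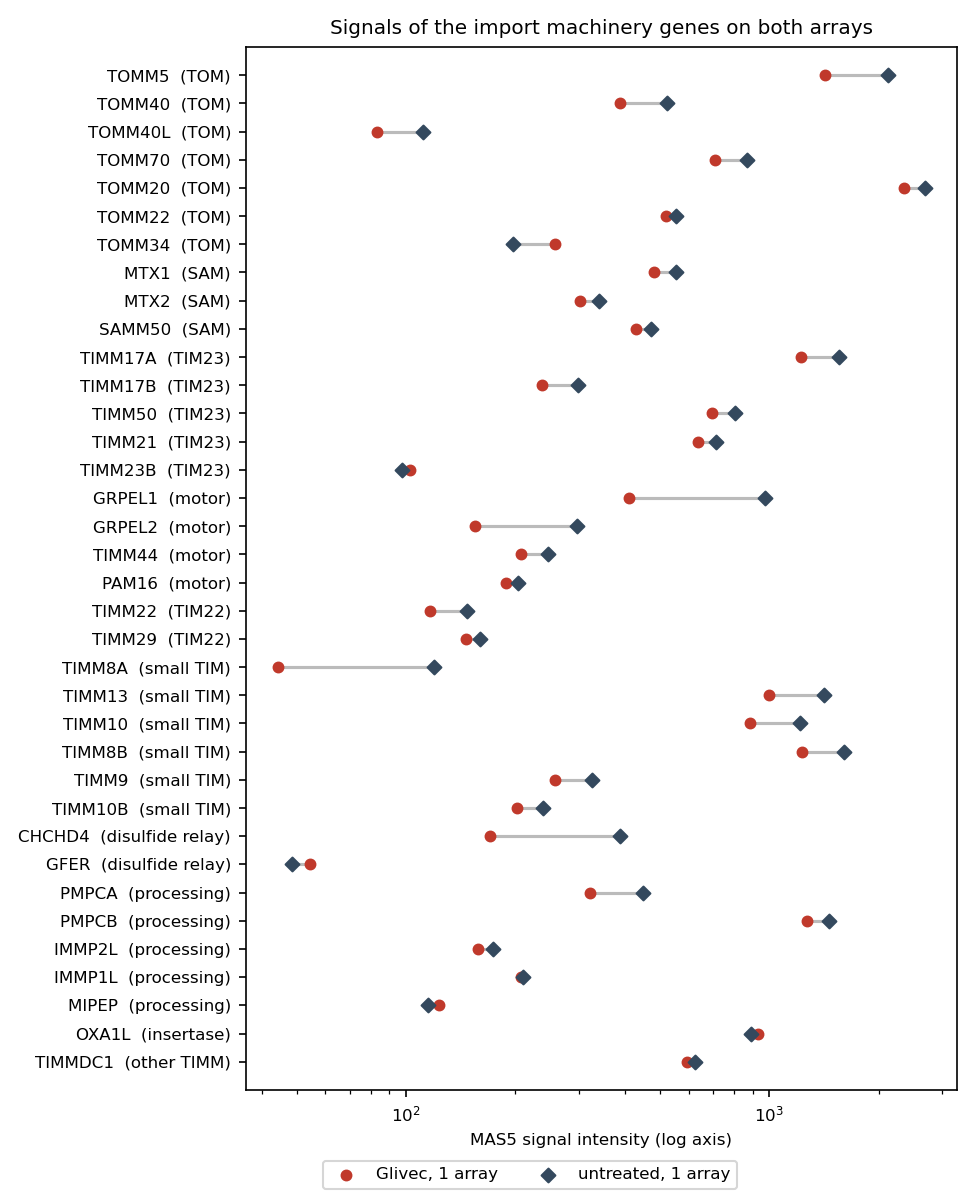
MAS5 signal intensity (log axis) of the 36 measured import genes on the Glivec array (red circles) and the untreated array (dark diamonds), grouped by role, 1 array each. The Glivec signal is the lower of the pair for 31 genes, with the widest gaps at TIMM8A, GRPEL1, CHCHD4 and GRPEL2, and is the higher for 5 genes, which were below 0 with scaling to the spike-ins.

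The promoters of the genes with the widest ratios are shown first, because shared regulatory letters are a property that the symbol rule did not use. The RefSeq promoter table of GRCh38.p14 (250 bases before to 50 after the gene start) matched 34 of the 37 genes. GRPEL1, TOMM5 and TIMM8B were not matched. The 6 below are the genes of largest ratio in size that hold a searched motif, and 5 of them were lower with Glivec while TOMM34 was higher. They lie at chrX:101348693-101348992 on the minus strand for TIMM8A, chr3:14124821-14125120 on the minus strand for CHCHD4 and chr5:149345249-149345548 on the plus strand for GRPEL2. Those of TIMM13, TIMM10 and TOMM34 lie at chr19:2427537-2427836 on the minus strand, chr11:57530705-57531004 on the minus strand and chr20:44960348-44960647 on the minus strand. Capitals mark the searched motifs, found on either strand: the E-box CACGTG that MYC and related factors bind, the NRF1 core TGCGCA, the GABP/ETS core CCGGAAG and the TATA box TATAAA. No marked motif overlaps another in these windows.
TIMM8A: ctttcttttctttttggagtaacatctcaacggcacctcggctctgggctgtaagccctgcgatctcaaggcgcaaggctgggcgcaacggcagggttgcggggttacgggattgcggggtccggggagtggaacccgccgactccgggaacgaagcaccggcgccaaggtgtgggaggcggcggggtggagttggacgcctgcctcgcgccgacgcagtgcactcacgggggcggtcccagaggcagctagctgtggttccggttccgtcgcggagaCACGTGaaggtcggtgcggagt
CHCHD4: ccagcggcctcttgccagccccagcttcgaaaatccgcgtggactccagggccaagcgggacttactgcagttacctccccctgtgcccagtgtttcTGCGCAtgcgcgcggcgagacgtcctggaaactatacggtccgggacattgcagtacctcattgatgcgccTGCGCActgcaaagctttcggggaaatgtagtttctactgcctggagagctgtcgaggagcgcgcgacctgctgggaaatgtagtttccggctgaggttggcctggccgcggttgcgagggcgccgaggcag
GRPEL2: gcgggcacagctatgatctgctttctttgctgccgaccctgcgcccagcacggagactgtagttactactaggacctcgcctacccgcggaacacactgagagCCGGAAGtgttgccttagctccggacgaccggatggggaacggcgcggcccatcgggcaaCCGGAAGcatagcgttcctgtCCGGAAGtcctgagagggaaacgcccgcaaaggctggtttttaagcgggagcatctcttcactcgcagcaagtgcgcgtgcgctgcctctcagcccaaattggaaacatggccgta
TIMM13: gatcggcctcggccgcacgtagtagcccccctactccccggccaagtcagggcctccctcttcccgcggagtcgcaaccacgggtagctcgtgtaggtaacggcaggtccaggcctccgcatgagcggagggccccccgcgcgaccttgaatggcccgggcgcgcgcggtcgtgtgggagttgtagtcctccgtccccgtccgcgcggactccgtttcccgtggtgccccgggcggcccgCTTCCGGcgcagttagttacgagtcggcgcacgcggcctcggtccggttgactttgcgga
TIMM10: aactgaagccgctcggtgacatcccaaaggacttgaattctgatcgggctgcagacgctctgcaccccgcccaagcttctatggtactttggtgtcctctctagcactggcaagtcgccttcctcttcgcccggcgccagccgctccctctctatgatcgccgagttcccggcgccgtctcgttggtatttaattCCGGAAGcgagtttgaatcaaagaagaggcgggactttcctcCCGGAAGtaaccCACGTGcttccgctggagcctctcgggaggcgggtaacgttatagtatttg
TOMM34: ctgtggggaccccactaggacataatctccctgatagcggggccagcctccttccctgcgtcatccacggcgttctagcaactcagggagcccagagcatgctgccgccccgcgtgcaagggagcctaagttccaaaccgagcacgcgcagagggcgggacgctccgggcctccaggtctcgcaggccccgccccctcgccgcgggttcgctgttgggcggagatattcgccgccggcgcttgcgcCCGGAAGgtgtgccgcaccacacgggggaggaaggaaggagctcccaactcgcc

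Among these, the TIMM8A window holds an E-box 28 bases after the start, and CHCHD4 holds an NRF1 core at 153 and at 82 bases before it. GRPEL2 holds the GABP/ETS core 3 times, 147, 87 and 66 bases before the start. TIMM10 holds that core at 55 and at 13 bases before the start and an E-box from 1 base before it. TIMM13 holds the GABP/ETS core on the opposite strand 10 bases before the start, and TOMM34 holds it 4 bases before.

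Over the 34 promoters, the GABP/ETS core was in 16 (47.1%), against 18.9% of the 10236 promoters of measured genes and 10.7% of all 27305 promoters in the table. The NRF1 core was in 8 (23.5%), against 13.2% and 8.42%. The E-box was in 4 (11.8%), those of TIMM8A, TIMM10, TOMM20 and MIPEP, against 10.2% and 7.43%. The TATA box was in 0 of 34, against 6.14% and 12.0%. The median GC content of the windows was 64.2%, against 64.7% for promoters of measured genes. The 3 promoters of genes at least 1.5-fold lower hold 1 motif kind each, and of the other 30 measured genes with a promoter 14 hold the GABP/ETS core, 7 the NRF1 core and 3 the E-box. A match is a description of the letters and not of a bound site.

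**Figure D2:**
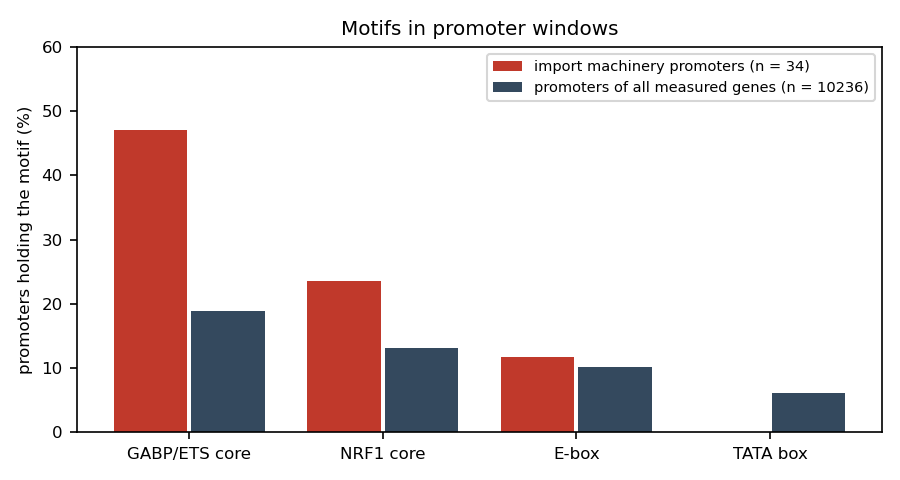
Share of promoter windows (%) that hold each motif, for 34 import genes (red bars) and for all 10236 promoters of measured genes (dark bars). The GABP/ETS core is in 47.1% of import promoters and 18.9% of all promoters of measured genes, and the TATA box is in none of the import promoters.

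TOM receptors and channel subunits, with the channel homolog TOMM40L, were lower in 6 of 6 genes, and 0 were past 1.5-fold. Their median log2 ratio was -0.36. Counts by role, here and below, stand beside 41.0% of all measured genes below 0 and 8.33% at least 1.5-fold lower. The members were proposed from this contrast, so nothing is read from the counts by role. TOMM5, a small subunit of the channel complex, had a signal of 1428 with Glivec and 2119 without (1.48-fold lower). Its other probe set read 1189 with Glivec and 1858 without (1.56-fold lower), so both put it near 1.5-fold. TOMM40, the channel itself, had 387 with Glivec and 524 without (1.35-fold lower), and the related TOMM40L had 82.9 with Glivec and 111.0 without (1.34-fold lower). TOMM70, the receptor for carrier precursors, had 708 with Glivec and 867 without (log2 ratio -0.29).

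The presequence receptors stood closer to the untreated level. TOMM20 had signals of 2357 with Glivec and 2679 without, and TOMM22, its central partner, had 518 with Glivec and 555 without. The 3 TOMM22 probe sets ran from -0.47 to -0.05 on the log2 scale. TOMM34, a cytosolic co-chaperone that is not a subunit of the complex and is not counted with it, was the member with the highest ratio, at 257.8 with Glivec and 196.8 without. It was 1.31-fold higher as deposited and at -0.35 with scaling to the hybridisation spike-ins.

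The SAM complex was lower in 3 of 3 genes by little, with ratios from -0.20 to -0.14. SAMM50, its barrel-folding core, had 429 with Glivec and 473 without, and the metaxins MTX1 and MTX2 had 482 and 301 with Glivec against 552 and 339 without. These ratios were smaller in size than the pooled SD between probe sets of a gene (0.36 over 17 import genes that have more than 1 probe set above the floor, 0.33 over 5603 such genes). That spread is the only error these arrays offer and leaves out variation between cultures. Also under 0.36 in size by the brightest probe set were TOMM20, TOMM22, TOMM70, TIMM44, PAM16, TIMM9, TIMM10B, GFER, OXA1L and TIMMDC1. The same held for all measured TIM23 and TIM22 genes and for every processing enzyme but PMPCA.

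The motor that drives translocation had the lowest median of the roles, -0.59, with 4 of 4 genes lower. GRPEL1, a nucleotide exchange factor that resets the motor's HSP70, had a signal of 411 with Glivec and 974 without (2.37-fold lower). A second GRPEL1 probe set read 411 with Glivec and 862 without (2.10-fold lower), and both were past 2-fold. GRPEL2, its paralog, had 154.4 with Glivec and 295.8 without (1.92-fold lower), just under 2-fold, while its dimmer probe set read 31.1 with Glivec and 91.6 without (2.94-fold lower). The anchor TIMM44 had 207.9 with Glivec and 245.9 without, and the regulator PAM16 had 188.2 with Glivec and 203.9 without. Both exchange factors were lower by more than the other motor genes, which had log2 ratios of -0.24 and -0.12. HSPA9, the motor's HSP70 (not a member, and named after its values were seen), had a log2 ratio of -0.23, from 1681 with Glivec and 1965 without.

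In the TIM23 channel 4 of 5 measured genes were lower, with a median of -0.21. TIMM17A, a channel subunit, had 1220 with Glivec and 1554 without by its brightest probe set (1.27-fold lower), but 726 with Glivec and 1325 without by the next (1.83-fold lower). Another, dim TIMM17A probe set read 24.2 with Glivec and 43.2 without. The 3 probe sets have the same sign and differ in size, from -0.87 to -0.35. Its X-linked paralog TIMM17B had 236.1 with Glivec and 297.7 without, a ratio of -0.33 next to -0.35 for TIMM17A by the brightest probe set. TIMM50, the presequence receptor of the inner membrane, had 698 with Glivec and 807 without (-0.21), or -0.93 by a dimmer probe set of 35.8 with Glivec and 68.1 without. TIMM21, which tethers TIM23 to TOM, was at -0.16, or -0.49 by its other probe set. TIMM23B, a TIMM23 paralog, was at 0.07 as deposited and -0.67 with scaling to the spike-ins. Probes can be shared between near-identical copies, so the TIMM23B value is uncertain.

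The TIM22 genes were lower in 2 of 2. TIMM22, the carrier insertion channel, had 116.1 with Glivec and 147.1 without, and its 3 probe sets disagreed, from -1.62 to 0.18. The probe set at -1.62 read 21.3 with Glivec and 65.7 without, and the one at 0.18 carries the suffix for cross-hybridisation. TIMM29 was at -0.13.

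The small TIM chaperones were lower in 6 of 6 genes (41.0% of all measured genes were), with a median of -0.42. TIMM8A, a partner of TIMM13 whose loss causes Mohr-Tranebjaerg deafness-dystonia in humans, had a signal of 44.4 with Glivec and 119.2 without, 2.69-fold lower and the lowest ratio of the 36. It rests on 1 probe set, since its other probe set was under the floor on both arrays. The paralog TIMM8B had 1230 with Glivec and 1607 without (1.31-fold lower), and the ratios of the TIMM8 pair differ by -1.04 on the log2 scale. TIMM13 had 996 with Glivec and 1414 without (1.42-fold lower).

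TIMM9 and TIMM10, which form a hexamer with each other, were 1.26-fold and 1.37-fold lower. TIMM10 had 888 with Glivec and 1219 without, or 324 with Glivec and 568 without by its other probe set (1.75-fold lower). TIMM9 had 257.1 with Glivec and 324.3 without, and TIMM10B, which docks the chaperones at TIM22, had 202.1 with Glivec and 238.2 without. None of these passed 1.5-fold by its brightest probe set, while all 4 measured probe sets of TIMM10 and TIMM10B were below 0.

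The disulfide relay genes differed in the size of their ratios. CHCHD4, the oxidoreductase also called MIA40, had a signal of 170.2 with Glivec and 388.4 without, 2.28-fold lower by its single probe set. GFER, the oxidase that recharges it, had 54.4 with Glivec and 48.6 without. Its log2 ratio was 0.16 as deposited, -0.05 after a loess trend and -0.58 with scaling to the spike-ins. The log2 ratio of CHCHD4 minus that of GFER was -1.35, a difference that a common scaling factor does not move while both stay above the floor.

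Processing enzymes were lower in 4 of 5 genes with a median of -0.14. PMPCA, the alpha subunit of the matrix processing peptidase, had 321 with Glivec and 449 without (1.40-fold lower), and the catalytic PMPCB had 1274 with Glivec and 1459 without (-0.19). A dim PMPCB probe set ran the other way, at 29.7 with Glivec and 6.72, under the floor, without. IMMP1L and IMMP2L, of the inner membrane peptidase, were at -0.02 and -0.14. MIPEP, the intermediate peptidase, was at 0.11 by the brighter probe set and at -0.21 by the other, and the insertase OXA1L, which inserts proteins from the matrix side, was at 0.07 as deposited. With scaling to the spike-ins MIPEP was at -0.63 and OXA1L at -0.67. TIMMDC1, which resembles TIMM genes but assembles respiratory complex I, was at -0.07.

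**Figure D3:**
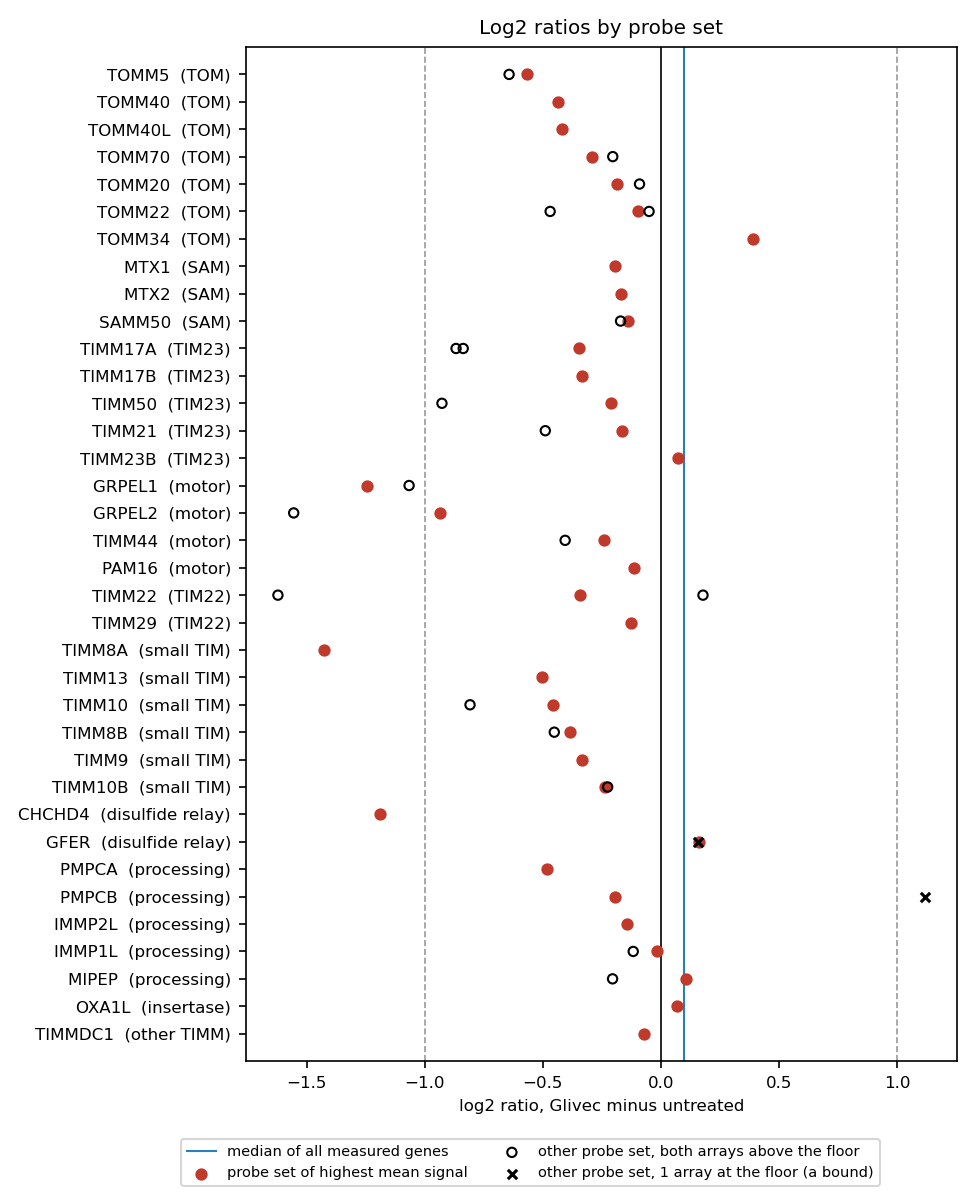
Log2 ratio (Glivec minus untreated) of each measured probe set, by gene and role. Filled red points are the probe sets of highest mean signal, open circles other probe sets, and crosses bounds with 1 array at the floor. The blue line is the median of all measured genes (0.10) and the dashed lines mark 2-fold; the GRPEL genes, TIMM8A and CHCHD4 sit at the left, and TIMM22 and PMPCB are spread widest.

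Probe sets of the same gene mostly had the same sign. Of 19 genes with several measured probe sets, 15 had all of them below 0, 1 (GFER) had all above 0 and 3 (TIMM22, PMPCB and MIPEP) were mixed. The second GFER probe set gives only a bound, at 15.3 with Glivec and 4.41, under the floor, without. Over the 56 import probe sets above the floor on both arrays, 50 were below 0 (89.3%), against 43.9% of 21067 such probe sets of all genes. The set was proposed from this contrast and probe sets of a gene are not independent, so nothing is read from these shares. The ratios ran from -1.62 to 0.39.

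Scaling moves every value here. The 18 hybridisation spike-in probe sets, added in equal amount by the standard protocol, had a median log2 ratio of 0.74 (0.42 to 0.89), so that scaling to them put 36 of 36 import genes below 0, where 91.4% of all measured genes were, with a median of -0.96, against -0.60 for all measured genes. With that scaling TIMM8A was at -2.16, GRPEL1 at -1.98, CHCHD4 at -1.93 and GRPEL2 at -1.68, so the lowest ratios shifted too. The gap between the import median and the median of all measured genes was -0.32 as deposited and lay between -0.42 and -0.28 over the 10 alternatives. Genes of like mean signal (205.5 to 761, the middle quartiles of the import genes) had a median of 0.01 over 3500 genes, below the 0.10 of all measured genes. For GAPDH the ratio of 3' to 5' signal was 1.04 with Glivec and 0.925 in untreated cells, and for ACTB it was 1.23 with Glivec and 1.17 in untreated cells. The part of RNA quality in the result was not tested.

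**Figure D4:**
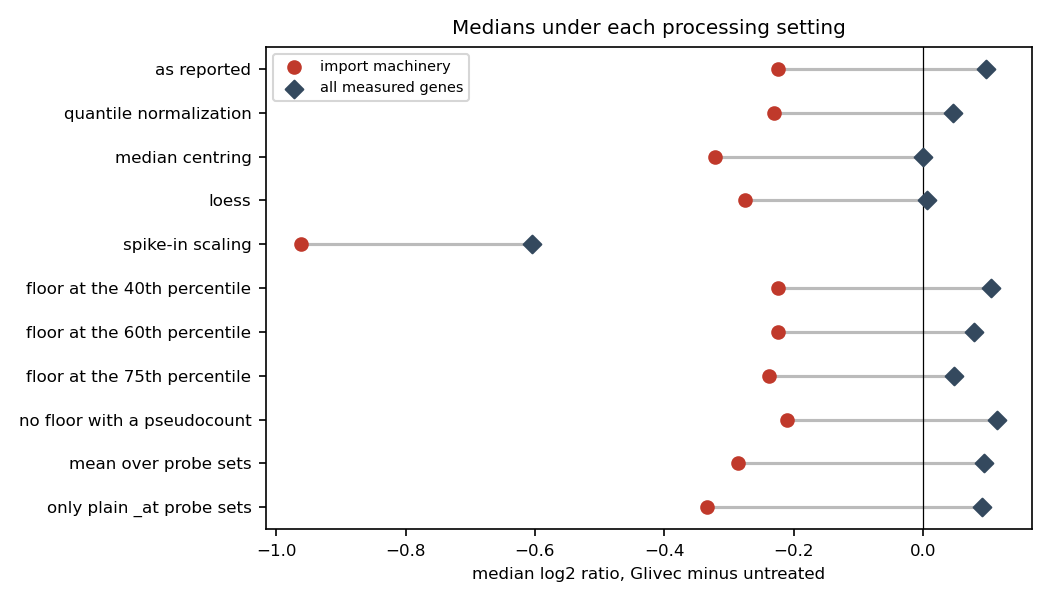
Median log2 ratio (Glivec minus untreated) of the import genes (red circles) and of all measured genes (dark diamonds) under each setting. The import median is below that of all genes in every row, and spike-in scaling moves both left.

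Nearby lists were laid beside the machinery, with medians and counts only. Their values are as deposited, where 41.0% of all measured genes were below 0. With scaling to the spike-ins all 9 lists given here had medians below 0, from -1.68 for the regulators to -0.63 for the respiratory chain. The 13 measured import partners (chaperones, insertases, peptidases and other genes that act beside the machinery) had a median of -0.14, with 8 lower. DNLZ, which keeps the matrix HSP70 soluble, had 87.7 with Glivec and 200.9 without (2.29-fold lower), and BCS1L, which moves a folded protein across the inner membrane, was 1.68-fold lower. Substrates of the disulfide relay were even, with 8 of 16 lower and a median of 0.03 (-0.07 with median centring). CMC2 was 1.97-fold lower and COX19 1.85-fold higher (0.15 on the log2 scale with scaling to the spike-ins), or 1.36-fold higher by its other probe set, both of them factors of cytochrome oxidase assembly.

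Matrix chaperones and proteases had a median of -0.01 over 13 genes, with DNAJA3, a partner of the matrix HSP70, 1.64-fold lower and the protease gene OMA1 at 0.45, or -0.29 with scaling to the spike-ins. The cytosolic chaperones that deliver precursors had a median of -0.19 over 7 genes, with STIP1 1.56-fold and DNAJA1 1.47-fold lower. Inner membrane carriers, the clients of TIM22, had a median of 0.01 over 13 genes (-0.09 with median centring). SLC25A32, which carries folate, was 3.21-fold lower and SLC25A1, the citrate carrier, 1.66-fold higher, or -0.005 on the log2 scale with scaling to the spike-ins. MICOS and porin genes had a median of 0.05 over 9 genes, with MICOS13 at -0.40 and MICOS10 at -0.31, or 0.40 by a dimmer probe set. With quantile normalization the MICOS and porin median was -0.18, and after a loess trend it was -0.10.

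Regulators of mitochondrial genes were lower in 8 of 9 measured, with a median of -0.94 and 4 at least 2-fold lower. The shares of all measured genes were 41.0% below 0 and 2.63% at least 2-fold lower. MYC had 557 with Glivec and 3781 without (6.78-fold lower), and PPARGC1B, a coactivator of mitochondrial genes, had 21.0 with Glivec and 66.4 without (3.16-fold lower) by its brightest probe set. Its other 2 measured probe sets were under the floor with Glivec and give bounds of -1.51 and -0.30 on the log2 scale. The other 2, PPRC1 and the mitochondrial transcription factor TFAM, named after their values were seen, were 2.14-fold and 2.10-fold lower. The brightest TFAM probe set, passed over for its cross-hybridisation suffix, was at -0.71, and others were at -0.93 and -1.02. TFAM is among the 4 by its next brightest probe set. The genes of NRF1 and of the GABP subunits, also named after their values were seen, were under 2-fold from untreated. NRF1 was at -0.29, or 0.03 by its next brightest probe set, GABPA at 0.15 (-0.59 with scaling to the spike-ins) and GABPB1 at -0.27.

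The closest lists by pathway went different ways. The 75 mitochondrial ribosomal protein genes had a median of -0.19, with 56 lower (74.7%) and 3 at least 2-fold lower, near the import median of -0.22. Among all measured genes, 41.0% were below 0 and 2.63% at least 2-fold lower. Respiratory chain and ATP synthase genes had a median of 0.10 over 73 genes, with 27 lower (37.0%) and 0 at least 2-fold lower, beside 0.10 for all measured genes. Quantile normalization put these medians at -0.18 and -0.03. With 1 array per group these differences between lists were not tested.

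**Figure D5:**
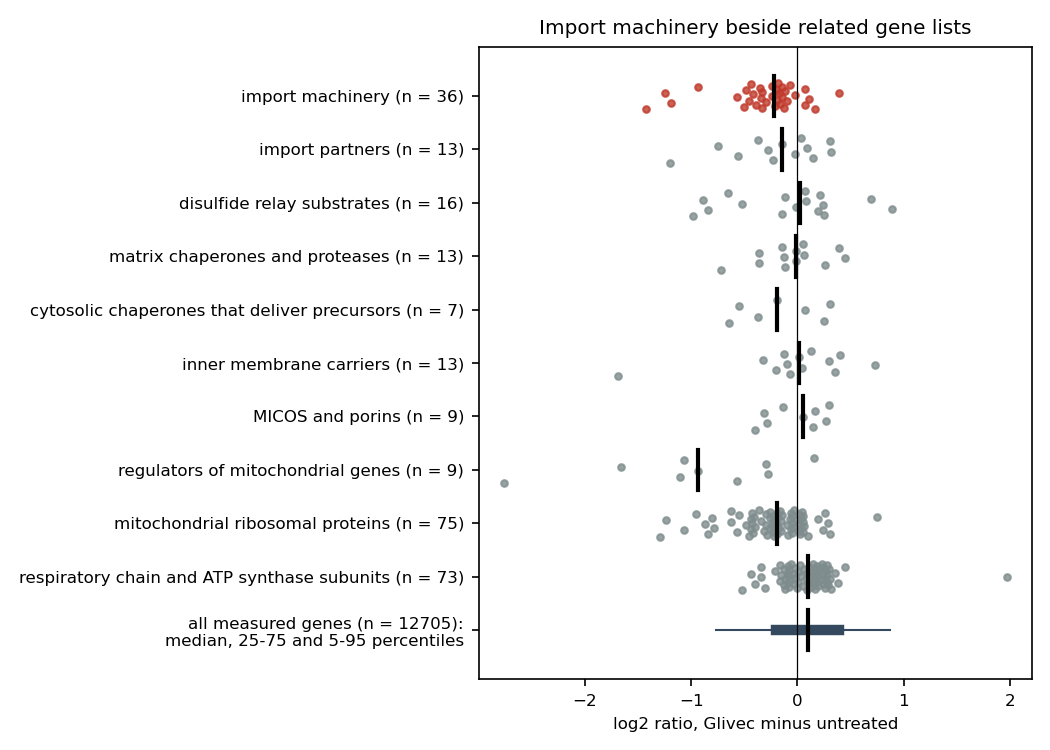
Log2 ratios (Glivec minus untreated) of the import genes (red) and of related lists (grey), with black bars at the medians. The lowest row gives all 12705 measured genes, with percentiles 5 to 95 from -0.77 to 0.87. Regulators of mitochondrial genes lie furthest left, and respiratory chain genes lie on the median of all genes.

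The cell markers were those of a myeloid line. Of 6 named eosinophil markers 4 were measured, PRG2 (6302 with Glivec, 4744 without) and RNASE2 (2872 with Glivec, 2146 without) among them, whereas IL5RA and SIGLEC8 were under the floor on both arrays and EPX and CLC lay near it. All 5 named myeloid markers were above the floor, with summed signals of 2494 with Glivec and 1976 without. T cell, B cell, erythroid and stromal lists had 1 measured gene each, with summed signals of 33.1 to 101.3 with Glivec and 8.15 to 76.3 without, and the brightest was the B cell gene CD79A, at 94.88 with Glivec and 60.03 without. Their part in the result was not tested.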

How the data were processed

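Affymetrix signal intensities were deposited by the submitters on a linear scale, 1 per probe set, for 54675 probe sets on 2 arrays. MAS5 produced these intensities, per the submitters' processing notes, in a version not given in the sources used here. Their trimmed mean (2% off each end) was 100.014 on both arrays. Probe sets were named from the platform annotation, which can be old: 41091 non-control probe sets had 1 symbol, 1801 several and 11721 none, and entrez identifiers changed 0 symbols.

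Signals under a floor of 13.7, the median of all non-control signals, were raised to it before log2. The probe set with the highest mean signal stood for a gene, with cross-hybridising ones (_x_at) only where no other was present, and a gene above the floor on at least 1 array counted as measured. Thresholds were 2-fold and 1.5-fold. All import genes are named. Of each pathway list, the 2 genes of largest ratio above the floor are named by rule. A few other list genes are named beyond that rule. The ribosomal protein and respiratory chain lists are given by counts and medians. The members, lists, settings and thresholds were chosen with earlier results of these data known. The calculation was tested on simulated data. Alternatives were quantile normalization, median centring, loess (span 0.3), spike-in scaling, floors at percentiles 40, 60 and 75, a pseudocount of 0.646, the mean over probe sets and only plain _at probe sets. Calculations used Python 3.11.15, numpy 2.4.6, pandas 2.3.3, scipy 1.17.1, statsmodels 0.14.6 and matplotlib 3.10.9. Promoters came from RefSeq, GRCh38.p14. Protein sequences were not used here.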

Additional observations from a re-analysis of the deposited data

How the results depend on the processing

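No paired analysis was possible because the design holds a single array for Glivec and a single one for untreated cells, and no replicate could be left out. A gene is said to have moved when its ratio differed by more than the pooled SD between probe sets (0.33), and the median when it differed by more than 0.068. The 2-fold count was 3 as deposited, 16 with spike-in scaling (where 19.7% of all measured genes were at least 2-fold lower) and between 2 and 4 with the other alternatives, where the shares of all genes were 2.15% to 9.35%. With the pseudocount, 3 of 37 import genes (8.11%) stood under the 9.35% of all genes. The 1.5-fold count was 4, but 34 with spike-in scaling (51.7% of all genes), 8 when probe sets were averaged (7.61%) and 8 with plain _at probe sets alone (9.01%). The median moved to -0.32 with median centring, -0.96 with spike-in scaling and -0.33 with plain _at probe sets (29 genes). The 0 genes at least 2-fold higher remained 0 throughout. Centring shifts all genes alike, and spike-in scaling does so for genes that stay above the floor, which shows the cause there. Genes near the floor shift less with spike-in scaling, and the number measured fell from 12705 to 11754. With plain _at probe sets other probe sets stood for TIMM50 (-0.93), TIMM17A (-0.84), TIMM10 (-0.81) and TIMM21 (-0.49), and otherwise the cause was not tested. TIMM8A was at -0.45 with the 75th percentile floor, where the Glivec signal is at the floor. With the mean over probe sets PMPCB was at 0.46, TIMM17A at -0.68 and TIMM50 at -0.57. No ratio of at least 2-fold changed sign. Genes near the floor can show only bounds.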

Other observations

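Genes of the response to import and protein-folding stress were a small list. Of 5 measured, 3 were lower, where 41.0% of all measured genes were, and the median was -0.15. HSPA5, the chaperone of the endoplasmic reticulum, had 1670 with Glivec and 2920 without (1.75-fold lower). PINK1, a kinase that collects on the outer membrane when import fails, had 128.3 with Glivec and 80.7 without, 1.59-fold higher as deposited and at -0.07 on the log2 scale with scaling to the spike-ins, and its other probe set was also above 0, at 0.82. ATF4 and ATF5, transcription factors of the stress response, were at -0.15 and -0.21, and DDIT3 at 0.28, or -0.46 with that scaling. ATF4, ATF5 and DDIT3 complete the 5 measured genes and are named beyond the 2 of largest ratio. These are values from 1 array per group with no test.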
